A study of Mus musculus with 6 samples.

Results

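The CCN genes *Nov*, *Ctgf*, *Cyr61* and *Wisp1* (now also called *Ccn3*, *Ccn2*, *Ccn1* and *Ccn4*) were examined in RNA-seq of microdissected arcuate nucleus (ARC) from adult female mice. The 4 genes were taken by symbol from the 24015 genes of the count table as members of one secreted protein family. *Nov* was selected on its measured difference between these same genotypes, its high level in the mutants, so that difference is given here as a description without a test. The other members were taken by family. The 3 controls were Esr1fl/fl and carried floxed alleles of the estrogen receptor alpha gene without Cre, and the 3 mutants were Esr1fl/fl;Nkx2-1-Cre (*Esr1* Nkx2-1Cre). All 6 females shared the floxed alleles and were labelled as of a mixed CD-1, 129P2 and C57BL/6 background, while the study's methods name CD-1 and 129P2 for this line. The Cre is driven by *Nkx2-1* and acts across the medial basal hypothalamus, not in one cell type. The comparison asks which transcripts of the female ARC change when this receptor is lost.

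CCN proteins are cysteine-rich matricellular proteins. They are secreted, stay near the matrix or circulate, and act on cells through integrins, proteoglycans and other receptors rather than as structural fibres. They are built from a module like that of the IGF-binding proteins, a von Willebrand type C module, a thrombospondin type 1 module and, in most members, a cystine knot at the C terminus. *Ctgf* and *Cyr61* are classical targets of YAP and TEAD and of growth factor and TGF-beta signalling, and *Wisp1* was found as a gene induced by Wnt1. *Nov* is expressed by neurons in several brain regions, and CCN3 protein released from arcuate *Kiss1* neurons has been described as a hormone that builds bone in lactating mice.

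The members lie at separate loci. In the GENCODE annotation of the NCBIM37 assembly *Nov* spans 54577257 to 54585594 on the plus strand of chromosome 15, with 2869 exonic bases in 5 exons. *Wisp1* lies on the same chromosome and strand from 66722882 to 66754763. *Ctgf* spans 24315248 to 24318489 on the plus strand of chromosome 10, and *Cyr61* spans 145309935 to 145312949 on the minus strand of chromosome 3. A lincRNA model on the opposite strand, *Gm15270*, overlaps 570 exonic bases of *Ctgf*. The strand setting of the counting is not given in the sources used here, so reads of the pair cannot be told apart. The RefSeq promoter table matched 1 of the 4 members, *Cyr61*; *Nov*, *Ctgf* and *Wisp1* had no match. The 250 bases before the *Cyr61* start, chr3:145649986-145650235 on the minus strand of GRCm38.p6, are shown because this promoter is a textbook example of YAP/TEAD control. Capitals mark, from left to right, a TEAD motif, a cAMP response element half-site and a TATA box.

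Cyr61 promoter: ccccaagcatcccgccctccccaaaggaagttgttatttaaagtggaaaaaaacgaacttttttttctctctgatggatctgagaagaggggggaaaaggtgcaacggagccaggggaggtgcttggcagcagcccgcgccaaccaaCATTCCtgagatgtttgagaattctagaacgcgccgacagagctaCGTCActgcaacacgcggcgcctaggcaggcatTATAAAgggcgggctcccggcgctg

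The TEAD letters CATTCC were searched on both strands, and 14.7% of the 32851 promoters in the table hold them. The half-site CGTCA was found on either strand in 20.8% and TATAAA on the sense strand in 8.32%. In *Cyr61* they begin at positions -103, -58 and -25 from the start. The AP-1 letters TGANTCA, found in 7.81% of promoters, the CArG box, found in 1.63%, and the palindromic estrogen response element, found in 0.07%, had no match in the *Cyr61* window of 250 bases before and 50 after the start. Of these motifs no pair overlapped there. A match describes the letters only.

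Each library held 11792440 to 17877137 reads counted on genes. Levels below are CPM, read counts scaled to a common library size after TMM normalization, and 3 counts correspond to between 0.175 and 0.248 CPM, a floor that covers counting error only. *Esr1* itself was at 48.5 to 64.5 CPM in the controls and at 7.06 to 11.8 CPM in the mutants (log2 fold change -2.59 ± 0.18 (s.e.), edgeR quasi-likelihood adjusted *p* = 0.000884). Markers of the ARC were present in all libraries, and so were markers of the ventromedial nucleus. Ventromedial markers summed to 89.3 CPM in control replicate 1, the lowest, and to 312 CPM in mutant replicate 3, the highest. Control replicate 2 stood apart in its content of pars tuberalis and pituitary transcripts, with 5.99 summed CPM against 460.4 to 746.8 in the other 5 libraries, and results are also given without it where it mattered. Within a group the labels give the libraries only a replicate number, and p-values measure the spread between these libraries.

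*Nov* was the most abundant CCN transcript in the mutants and its mean CPM was 7.26 times that of the controls. Control replicates 1, 2 and 3 held 16.4, 19.3 and 22.6 CPM of *Nov*, from 245 to 331 counts. Mutant replicates 1, 2 and 3 held 199, 109 and 116 CPM, from 1735 to 2406 counts. Every mutant was above every control, as in 7.88% of all tested genes, and the lowest mutant was 4.83 times the highest control. This separation belongs to the difference that selected *Nov* and is a description only. The mean was 19.4 ± 3.09 CPM for the controls and 141 ± 49.9 CPM for the mutants (SD, n = 3 each), and the log2 fold change was 2.86 ± 0.28 (s.e.). This was the 9th highest log2 fold change of the 15236 genes tested. In a bulk sample, fewer cells of a type and less RNA per cell cannot be told apart, nor can more cells and more RNA per cell. Mutant replicate 1 carried the highest level. Without it the log2 fold change was 2.53, and over all 6 fits that left out one library it lay between 2.53 and 3.01. Without control replicate 2 it was 2.85.

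*Ctgf*, the fibrotic and TGF-beta-responsive member, showed a spread between controls that was wider than the difference between the group means. It was at 22.8 CPM in control replicate 1, against 5.35 and 7.10 CPM in control replicates 2 and 3. The mutants, at 16.8, 13.9 and 11.3 CPM, lay between these values. The highest control was 4.26 times the lowest, while the highest mutant was 1.49 times the lowest. The log2 fold change was 0.26 with a standard error of 0.60 and a 95% interval of -1.25 to 1.77 (edgeR adjusted *p* = 0.944), and the exact two-sided permutation test over the 6 libraries gave *p* = 0.5. The value depended on single controls, most on control replicate 1. Without that library it became 1.17 ± 0.23 (s.e.; edgeR adjusted *p* = 0.113), and both remaining controls were below all 3 mutants. Without control replicate 2 it was -0.10, and without control replicate 3 it was -0.00025. A difference in *Ctgf* was not detectable with these libraries, and the interval leaves room for more than a doubling or a halving on the CPM scale.

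*Cyr61*, an immediate early gene with roles in adhesion and vessel growth, varied least over the pooled 6 libraries, although *Nov* varied less among the controls. Control replicates 1, 2 and 3 held 6.30, 6.69 and 4.09 CPM, and mutant replicates 1, 2 and 3 held 6.93, 5.91 and 6.66 CPM. The groups overlapped, and control replicate 3 was the lowest library. The log2 fold change was 0.18 with a standard error of 0.22 and a 95% interval of -0.30 to 0.67 (edgeR adjusted *p* = 0.864), and the exact two-sided permutation test gave *p* = 0.6. Without control replicate 3 the log2 fold change was -0.0011. The coefficient of variation of *Cyr61* was 24.6% in controls and 8.18% in mutants, on counts of 57 to 115 per library.

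*Wisp1*, the Wnt1-inducible member known from the osteoblast lineage, was the rarest. Its counts were 7, 4 and 6 in control replicates 1, 2 and 3 and 21, 18 and 12 in mutant replicates 1, 2 and 3. These gave 0.469, 0.233 and 0.430 CPM in controls and 1.73, 1.13 and 0.799 CPM in mutants. Every mutant was above every control, which was also true of 7.88% of the 15236 tested genes. The log2 fold change was 1.67 with a standard error of 0.50 and a 95% interval of 0.55 to 2.79 (edgeR adjusted *p* = 0.323, 0.00758 unadjusted). The exact two-sided permutation test gave *p* = 0.1, the smallest that 3 against 3 allow. *Wisp1* passed the filter on low counts only through the mutants, 3 of which reached its cutoff of 0.669 CPM against 0 controls, so a gene like it could enter the test only by differing. The lack of overlap, and with it the result of the permutation test, was fixed by this and is not support for a difference. The count ratio that follows is a description for the same reason. From the summed counts of 51 and 17 the ratio of mutants to controls was 3.21, with an exact 95% counting interval of 1.82 to 5.93 that leaves out the spread between libraries. Without mutant replicate 1 the log2 fold change was 1.36, and without control replicate 2 it was 1.40.

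All 4 members passed the filter, *Wisp1* only through the mutants, so its p-values are not support for a difference. Of *Ctgf*, *Cyr61* and *Wisp1*, 0 had an adjusted p-value under 0.05 with edgeR, 0 with DESeq2 and 0 with limma voom, and the unadjusted p-value was under 0.05 for 1 (*Wisp1*). Over all tested genes edgeR called 18, or 0.118%, with 9 (0.0591%) higher in mutants and 9 (0.0591%) lower, and 8.85% had an unadjusted p-value under 0.05. The remaining genes of the family had low counts. *Wisp2*, which lacks the cystine knot, had 0 to 2 counts in controls and 0 to 6 in mutants. *Wisp3* had 5 to 10 counts in controls and 4 to 13 in mutants, and 88 of its exonic bases are shared with *Tube1* on the opposite strand. Neither *Wisp2* nor *Wisp3* passed the filter.

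**Figure D1:**
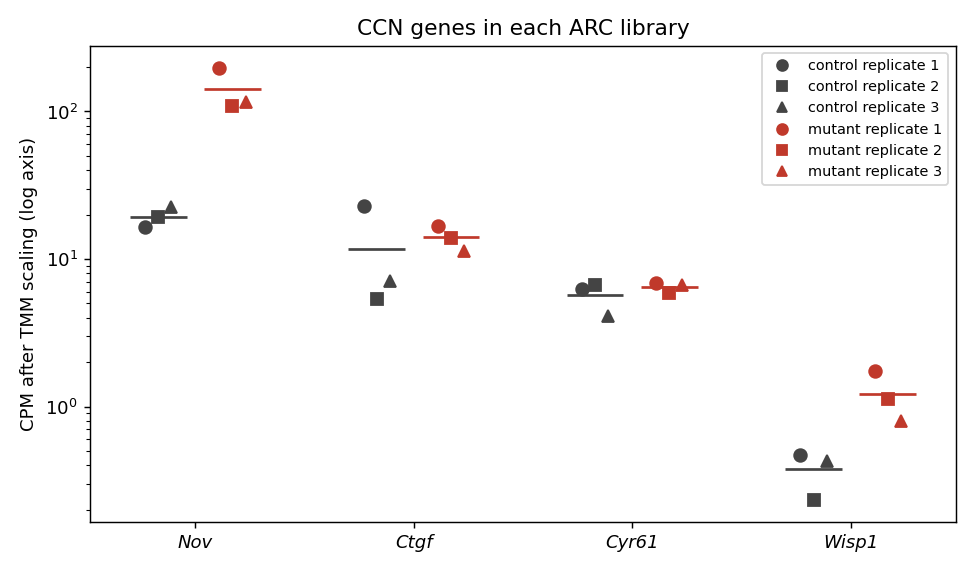
CPM after TMM scaling of each CCN gene on a log axis, 1 point per library with the replicate number as its shape and the group mean as a line. *Nov* separates the genotypes by a wide margin, *Ctgf* in control replicate 1 (22.8 CPM) lies above all 3 mutants, *Cyr61* overlaps, and *Wisp1* separates at levels under 2 CPM.

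Levels of different genes are compared per kilobase of exon, since longer transcripts collect more reads. Per kilobase, the control means were 6.77 ± 1.08 CPM for *Nov*, 4.72 ± 3.85 for *Ctgf*, 2.81 ± 0.692 for *Cyr61* and 0.0684 ± 0.0230 for *Wisp1* (SD, n = 3). The first 3 neighbours in this order could not be separated in controls: *Ctgf* was above *Nov* in control replicate 1, and *Cyr61* was above *Ctgf* in control replicate 2. *Wisp1* was below all of them in every library. In the mutants the order *Nov*, *Ctgf*, *Cyr61*, *Wisp1* held in 3 of 3 libraries, with means per kilobase of 49.2 ± 17.4, 5.64 ± 1.11, 3.20 ± 0.262 and 0.221 ± 0.0857 CPM (SD, n = 3).

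*Nov* accounted for 31.7%, 55.0% and 61.4% of the summed family level per kilobase in control replicates 1, 2 and 3 and for 86.8%, 81.3% and 83.5% in mutant replicates 1, 2 and 3. These shares follow from the difference that selected *Nov* and are a description only. The other 3 members together summed to 29.5, 12.3 and 11.6 CPM in the controls and to 25.5, 21.0 and 18.8 CPM in the mutants, ranges that overlap. Among the 13956 tested genes with an exon length, *Nov* ranked from the 49.9 to the 58.5 percentile per kilobase in controls, near the middle of all genes, and from the 91.3 to the 96.7 percentile in mutants. *Cyr61* ranked from the 26.5 to the 37.6 percentile over all 6 libraries, and *Wisp1* did not exceed the 3.46 percentile.

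**Figure D2:**
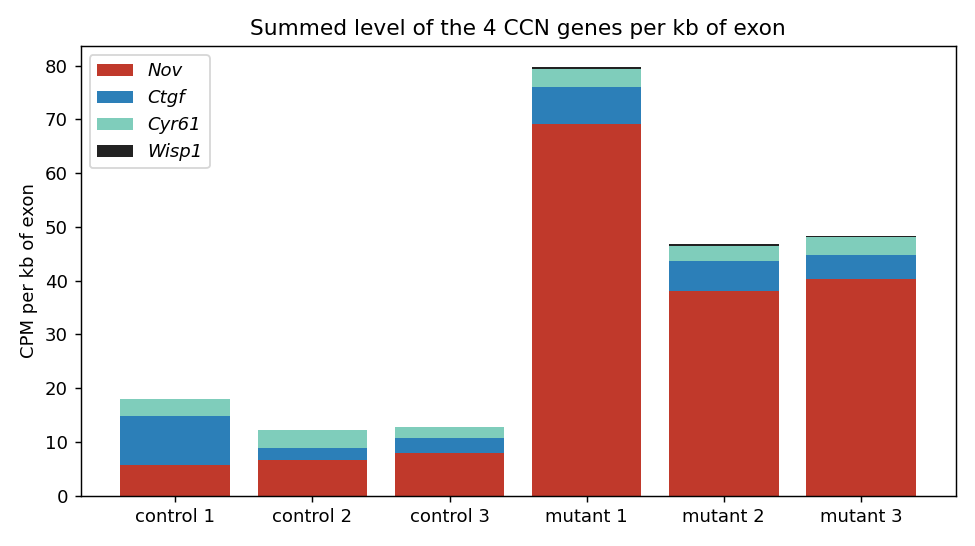
CPM per kilobase of exon, stacked by CCN gene, for each of the 6 libraries. *Nov* forms 31.7% to 61.4% of the control bars and 81.3% to 86.8% of the mutant bars, and the *Ctgf* segment is largest in control replicate 1.

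The genes whose pattern was closest to that of *Nov* were found by the root mean square difference of log2 CPM over the 6 libraries, each gene centred on its own mean. Because the measure is taken over the same genotypes, it ranks genes with a like difference between the genotypes and is a description only. The closest were *Cd36*, a fatty acid and lipoprotein receptor, at a difference of 0.33, *Xcr1*, a chemokine receptor of dendritic cells, at 0.38, *Fst*, the activin antagonist follistatin, at 0.39, *Siglec1*, a macrophage lectin, at 0.51 and *Gm4847* at 0.55, against a root mean square of 1.44 for *Nov* about its own mean. *Cd36* had 0.931 to 2.22 CPM in controls against 10.6 to 12.95 CPM in mutants. *Fst* had 1.34 to 1.98 CPM in controls against 25.7, 6.41 and 10.3 CPM in mutant replicates 1, 2 and 3, with mutant replicate 1 highest as for *Nov*. *Xcr1* was below the 3-count floor in all controls.

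**Figure D3:**
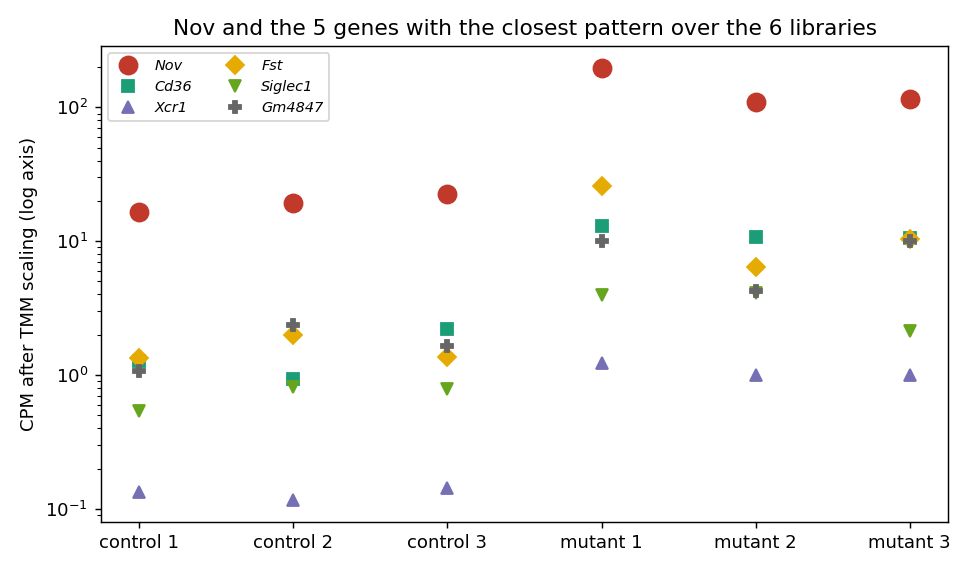
CPM after TMM scaling, on a log axis, of *Nov* and the 5 genes nearest to it in centred log2 pattern, for each of the 6 libraries. All 6 genes are higher in each mutant than in each control, and *Nov* is at 16.4 to 22.6 CPM in controls and 109 to 199 CPM in mutants, above the others in every library.

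The genes nearest to the other members differed from those nearest to *Nov* and from one another. Those nearest to *Ctgf* were *Tktl1* at 0.052, *Sp6* at 0.12 and *Traf1*, a TNF receptor signalling adaptor, at 0.18. All 3 were lowest in control replicate 2. *Tktl1* and *Sp6* had the same order over the libraries as *Ctgf*, while *Traf1*, with 29.3, 8.03 and 12.8 CPM in control replicates 1, 2 and 3, was highest in mutant replicate 1. *Carhsp1*, *Nxn* and *Sh3bp5l* were nearest to *Cyr61*, at 0.042, 0.058 and 0.065, and all had their lowest level in control replicate 3. Nearest to *Wisp1* were the chemokine gene *Ccl12* at 0.20, *Cmah* at 0.20 and the interferon-inducible GTPase gene *Gbp6* at 0.22. *Ccl12* had 1.75 to 2.88 CPM in controls against 4.397 to 9.24 CPM in mutants. Between members, the difference was 1.37 for *Nov* and *Ctgf*, 1.36 for *Nov* and *Cyr61*, and 0.78 for *Nov* and *Wisp1*. It was 0.66 for *Ctgf* and *Cyr61*, 0.66 for *Ctgf* and *Wisp1*, and 0.75 for *Cyr61* and *Wisp1*. The root mean square about the own mean was 0.70 for *Ctgf*, 0.25 for *Cyr61* and 0.78 for *Wisp1*. The measure depends on the size of the changes as well as on their direction.

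The genes next to the members had log2 fold changes between -0.85 and 0.57, all smaller than that of *Nov*. The nearest protein-coding genes on each side of *Nov* with a test were *Enpp2*, 84.9 kb away, which makes the enzyme autotaxin, and *Mal2*, 143 kb away. *Enpp2* had a log2 fold change of 0.38 (adjusted *p* = 0.561, edgeR) and *Mal2* one of -0.065 (adjusted *p* = 0.928, edgeR). *Ndrg1*, 6.12 kb from *Wisp1* and known from myelinating cells, had 58.4 ± 6.71 CPM in controls against 76.0 ± 4.72 CPM in mutants (SD, n = 3; log2 fold change 0.38, adjusted *p* = 0.259, edgeR), with every mutant above every control, as in 7.88% of all tested genes. The same held for *Sla* and *St3gal1*, also near *Wisp1*, and for *Bcl10* near *Cyr61*. *Moxd1*, near *Ctgf*, had every mutant below every control, and the other tested neighbours overlapped. Of the 14 tested genes among the 16 nearest neighbours of the members, taken as 2 on each side, 0 had an adjusted p-value under 0.05 with edgeR, DESeq2 or limma voom. An unadjusted p-value under 0.05 was found for 3, against 8.85% of all tested genes. The median log2 fold change of the 14 was 0.15, against 0.0036 over all tested genes.

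The receptors through which CCN proteins act were expressed, and none passed the threshold. Of 14 receptor and co-receptor genes, 13 passed the filter and were tested. Adjusted p-values under 0.05 were found for 0 with edgeR, DESeq2 and limma voom, and unadjusted ones for 4, against 8.85% of all tested genes. The median log2 fold change was 0.23, and 11 of the 13 were above 0. Every mutant was above every control in 3, against 7.88% of all tested genes. *Itgav*, the integrin alpha v subunit that binds several CCN proteins, had 117, 106 and 111 CPM in controls 1, 2 and 3 against 127, 131 and 134 CPM in mutants 1, 2 and 3, a log2 fold change of 0.23 (adjusted *p* = 0.385, edgeR) without overlap. *Itgam* and *Itgb2*, the subunits of the leukocyte integrin Mac-1, had log2 fold changes of 0.41 and 0.49 (adjusted *p* = 0.275 and 0.456, edgeR), also without overlap. The other integrin beta subunit genes of the list, *Itgb1*, *Itgb3* and *Itgb5*, had log2 fold changes of 0.054, 0.0063 and 0.29. *Lrp1*, a CTGF receptor and the most abundant of the list, had 545 ± 83.2 CPM in controls against 521 ± 75.4 CPM in mutants (SD, n = 3). *Notch1*, a binding partner of NOV, had a log2 fold change of 0.085.

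The Hippo pathway restrains YAP and TAZ, the co-activators that act with TEAD factors on *Ctgf* and *Cyr61*. Of its 16 tested components, 0 passed the threshold with edgeR, DESeq2 or limma voom, 0 had an unadjusted p-value under 0.05, and the median log2 fold change was 0.11. *Tead1*, the most abundant, had 329 ± 19.8 CPM in controls against 292 ± 7.44 CPM in mutants (SD, n = 3; log2 fold change -0.17, adjusted *p* = 0.571, edgeR). *Tead3* was at 0.701 ± 0.112 and 1.22 ± 0.200 CPM, and the kinase gene *Lats2* at 49.3 ± 9.44 and 60.0 ± 2.26 CPM (SD, n = 3). Of 20 other genes commonly used as YAP/TEAD targets, 19 were tested and *Ankrd1* did not pass the filter. Their median log2 fold change was 0.24, and 14 of the 19 were above 0. The only one past the threshold fell: *Rbms3*, an RNA-binding protein gene, had 161 ± 14.5 CPM in controls against 102 ± 9.22 CPM in mutants (SD, n = 3; log2 fold change -0.66 ± 0.097 s.e., edgeR adjusted *p* = 0.0421). The call was lost in 4 of 6 fits that left out one library, those without control replicate 1 or 3 or mutant replicate 2 or 3, where the adjusted *p* was 0.088, 0.104, 0.216 and 0.174. DESeq2 called *Rbms3* and *Tgfb2*, against 191 of 15105 of all tested genes. Of these targets limma voom called 0, and 5 had an unadjusted p-value under 0.05, against 8.85% of all tested genes. *Fjx1*, and *Crim1*, the most abundant of these targets, had log2 fold changes of 0.54 and 0.21 (edgeR adjusted *p* = 0.259 and 0.561).

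TGF-beta signalling induces *Ctgf*. Of 13 tested pathway genes, 0 passed with edgeR or limma voom. With DESeq2 2 passed, *Tgfb2* and *Skil*, against 191 of 15105 of all tested genes. An unadjusted p-value under 0.05 was found for 2, against 8.85% of all tested genes. The median log2 fold change was 0.18, and between 0.067 and 0.27 in fits that left out one library, lowest without control replicate 2. The ligand gene *Tgfb2* had 56.8, 50.8 and 75.3 CPM in controls 1, 2 and 3 against 79.9, 94.5 and 112 CPM in mutants 1, 2 and 3 (log2 fold change 0.65, adjusted *p* = 0.264, edgeR). *Skil*, whose protein SnoN restrains SMAD factors, had a log2 fold change of -0.32 (adjusted *p* = 0.163, edgeR), and *Smad2* one of -0.15 (adjusted *p* = 0.571, edgeR). In all 3 genes, named for the smallest p-values of the list, the groups did not overlap. Of the 13, every mutant was above every control in 2 and below in 2. Each was true of 7.88% of all tested genes.

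*Cyr61* belongs to the immediate early genes in many cells, and the other genes of that class were counted beside it. Their median log2 fold change was 0.69 over 15 tested genes, against 0.18 for *Cyr61* and 0.0036 over all tested genes, and 13 of the 15 were above 0. The list median was between 0.38 without control replicate 2 and 1.13 without control replicate 1. One gene passed the threshold: *Dusp1*, a MAP kinase phosphatase gene, rose from 20.7 ± 3.25 CPM in controls to 42.2 ± 5.60 CPM in mutants (SD, n = 3; log2 fold change 1.03 ± 0.14 s.e., edgeR adjusted *p* = 0.0313). Its call was lost in fits without control replicate 3 or mutant replicate 2 or 3, with adjusted *p* of 0.101, 0.133 and 0.140. The neuronal activity gene *Npas4* was at 3.88 ± 1.48 and 16.0 ± 4.96 CPM (SD, n = 3; log2 fold change 2.05, adjusted *p* = 0.0650, edgeR), and DESeq2 called it as well as *Dusp1*, while limma voom called 0. Over all tested genes DESeq2 called 191 of 15105. Of the list, 6 had an unadjusted p-value under 0.05, against 8.85% of all tested genes. *Arc* had a log2 fold change of 0.91 (adjusted *p* = 0.356, edgeR). *Egr1*, the most abundant, had 149 ± 74.7 CPM in controls against 241 ± 76.4 CPM in mutants (SD, n = 3), and *Srf*, which encodes the factor that drives many genes of this class, had a log2 fold change of 0.057.

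The Wnt/beta-catenin genes gave no common direction beside the higher counts of *Wisp1*. Of 13, 11 were tested, and *Sp5* and *Notum* did not pass the filter. With edgeR and limma voom 0 passed, and DESeq2 called 1, *Lef1*, against 191 of 15105 of all tested genes. Of the list 3 had an unadjusted p-value under 0.05, against 8.85% of all tested genes. Of the 11, 6 were above 0, with a median log2 fold change of 0.050, and -0.046 without control replicate 2. *Lef1*, a transcription factor gene of the pathway, had 11.1 ± 1.88 CPM in controls against 5.46 ± 1.01 CPM in mutants (SD, n = 3; log2 fold change -1.01, adjusted *p* = 0.0895, edgeR). The related factor gene *Tcf7l2* had a log2 fold change of -0.38, and *Lgr5*, a receptor for R-spondins, one of 0.47 (adjusted *p* = 0.279 and 0.478, edgeR). *Ctnnb1*, the beta-catenin gene, was at 510.3 ± 49.6 and 564 ± 29.7 CPM (SD, n = 3). Of 14 tested Notch pathway genes, 0 passed with edgeR, DESeq2 or limma voom and 1 had an unadjusted p-value under 0.05, *Hey2* (log2 fold change 0.28). The median was 0.15, and the ligand *Dll1*, the target *Hes1* and the receptor *Notch2* had log2 fold changes of 0.43, 0.43 and 0.17.

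Proteins that share the matricellular role or the N-terminal module of the CCN family were counted as well. Of 15 other matricellular genes, 0 passed with edgeR or limma voom. DESeq2 called 2, *Thbs2* and *Spp1*, against 191 of 15105 of all tested genes. The median log2 fold change was 0.094. An unadjusted p-value under 0.05 was found for 4, against 8.85% of all tested genes. *Thbs2*, a thrombospondin gene, had 9.25 ± 1.27 CPM in controls against 16.3 ± 2.18 CPM in mutants, and *Spp1*, the osteopontin gene, at 3.76 ± 1.94 and 11.8 ± 3.05 CPM (SD, n = 3; log2 fold changes 0.82 and 1.65, adjusted *p* = 0.0884 and 0.233, edgeR). *Thbs4* was at 0.403 ± 0.161 and 1.09 ± 0.204 CPM, and *Sparc*, the most abundant, at 1997 ± 468 and 2061 ± 413 CPM (SD, n = 3). The controls of *Thbs4*, at 0.268 to 0.582 CPM, were all under the filter cutoff of 0.669 CPM. Like *Wisp1* it was tested only through the mutants. Its unadjusted p-value, which is among the 4 under 0.05, is therefore not support for a difference. Of 7 IGF-binding protein genes, 6 were tested, *Igfbp1* did not pass the filter, and 0 passed the threshold with edgeR, DESeq2 or limma voom or had an unadjusted p-value under 0.05. All 6 had a log2 fold change above 0, with a median of 0.54 that was 0.20 without control replicate 2. *Igfbp5* had 1001, 423 and 915 CPM in controls 1, 2 and 3 against 1183, 1076 and 1012 CPM in mutants 1, 2 and 3, a log2 fold change of 0.48 with control replicate 2 far below the other libraries. *Igfbp3* and *Igfbp2* had log2 fold changes of 0.81 and 0.60 (adjusted *p* = 0.597 and 0.708, edgeR).

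**Figure D4:**
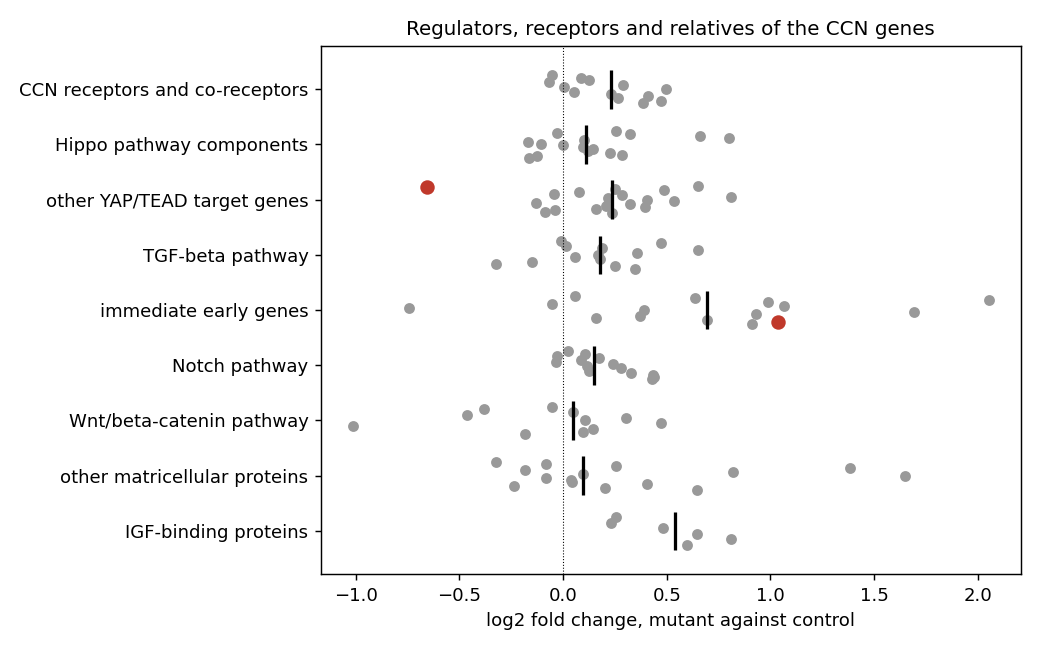
Log2 fold changes of mutant against control for the tested genes of 9 lists around the CCN family, 1 point per gene, with the median as a bar and genes with an adjusted p-value under 0.05 (edgeR) in red. *Rbms3*, at -0.66, and *Dusp1*, at 1.03, are the red points, and the median of the immediate early genes, 0.69, is the highest.

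Markers of cell types and regions differed between the same libraries. The 5 markers of KNDy neurons, the arcuate neurons that make kisspeptin, neurokinin B and dynorphin, summed to 304 to 339 CPM in controls and to 518, 363 and 356 CPM in mutant replicates 1, 2 and 3. *Kiss1* had 1.94, 0.814 and 0.789 CPM in controls 1, 2 and 3 against 9.49, 3.64 and 2.93 CPM in mutants 1, 2 and 3, and like *Nov* it was highest in mutant replicate 1. This was not particular to *Kiss1*. The ARC, oligodendrocyte, microglia and tanycyte sums also peaked in mutant replicate 1, at 697, 1790, 413 and 1311 CPM. Those of the ventromedial, pan-neuronal, astrocyte, endothelial, mural, meningeal and pars tuberalis lists peaked in other libraries. Of the KNDy list *Tac2* had a log2 fold change of 0.80 and *Pgr* one of -0.64 (adjusted *p* = 0.415 and 0.0567, edgeR). *Tacr3* had a log2 fold change of -0.58 (adjusted *p* = 0.395, edgeR), and 3 of the 5 were above 0. In counts, 0 of the 5 passed with edgeR or limma voom. With DESeq2 4 passed, 3 of them higher and 1 lower in mutants, against 191 of 15105 of all tested genes. An unadjusted p-value under 0.05 was found for 5, in both directions, against 8.85% of all tested genes.

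Markers of oligodendrocytes, which wrap axons in myelin, and of microglia also differed in summed level between the groups. The 10 oligodendrocyte markers summed to 668 to 1253 CPM in controls and 1626 to 1790.2 CPM in mutants, and 10 of the 10 were higher in each mutant than in each control, as were 7.88% of all tested genes, with a median log2 fold change of 0.94. *Cldn11* was the one past the threshold (8.76 ± 1.95 and 21.2 ± 2.07 CPM, SD, n = 3; log2 fold change 1.27, adjusted *p* = 0.0313, edgeR), and it lost its call in fits without control replicate 1 or 3 or mutant replicate 2 or 3 (edgeR adjusted *p* = 0.0758, 0.0904, 0.151 and 0.140). Of the list DESeq2 called 5, limma voom 1 and edgeR without control replicate 2 called 8, and 10 had an unadjusted p-value under 0.05, against 8.85% of all tested genes. Over all tested genes DESeq2 called 191 of 15105, limma voom 14 of 15236 and edgeR without control replicate 2 called 46 of 15565. *Mbp*, a major myelin protein gene, had a log2 fold change of 0.90 (adjusted *p* = 0.279, edgeR). The 8 microglia markers summed to 289 to 304 CPM in controls and 372 to 413 CPM in mutants, with *Ctss* at a log2 fold change of 0.67 (adjusted *p* = 0.0706, edgeR). With edgeR and limma voom 0 of the microglia markers passed, with DESeq2 2, and 4 had an unadjusted p-value under 0.05. The part of KNDy neurons, oligodendrocytes and microglia in the level of *Nov* or *Wisp1* was not tested.

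The other marker lists overlapped between the genotypes in their summed levels. Despite this overlap the ventromedial list had a median log2 fold change of 0.92, and 0.49 to 1.40 in fits that left out one library. Of its 5 tested genes 4 were above 0, and 1 had every mutant below every control, as did 7.88% of all tested genes. The sums ran in controls and mutants from 432 to 511 and 489.6 to 697 CPM for the ARC, 89.3 to 205 and 109 to 312 for the ventromedial nucleus, 3423 to 4347 and 3648 to 5090.4 for neurons in general, and 4032 to 6860.0 and 4382 to 6352 for astrocytes. Tanycyte and ependymal markers summed to 720.4 to 1117 and 1111 to 1311 CPM, endothelial markers to 103 to 157 and 144 to 167, mural markers to 119 to 178 and 139 to 162, and meningeal fibroblast markers to 185 to 391 and 211 to 536 CPM. No gene of these lists, or of the pars tuberalis and pituitary list, passed the threshold with edgeR or limma voom. *Dio2* of the tanycyte list (log2 fold change 0.77, adjusted *p* = 0.189, edgeR) did with DESeq2, and the unadjusted p-value was under 0.05 for 3 genes of these lists, against 8.85% of all tested genes. In control replicate 2, the library with the lowest *Ctgf*, the endothelial, mural, meningeal and tanycyte sums were also the lowest of the 6, and their part in the level of *Ctgf* was not tested. In control replicate 1, the library with the highest *Ctgf*, the mural sum of 178 CPM and the pars tuberalis sum of 747 CPM were the highest of the 6. No marker was at 0 counts in all libraries.

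**Figure D5:**
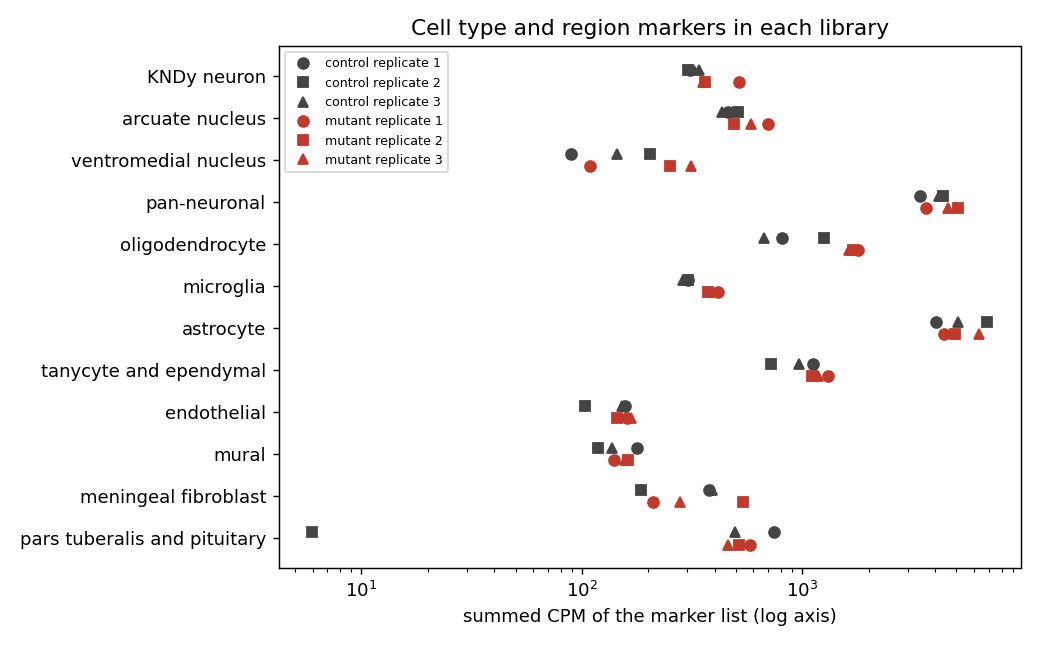
Summed CPM of each marker list on a log axis, 1 point per library, controls in grey and mutants in red with the replicate number as the shape. Oligodendrocyte, microglia and KNDy sums separate the genotypes, and control replicate 2 lies at 5.99 CPM for pars tuberalis and pituitary markers.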

How the data were processed

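ARC RNA (50 ng per the labels) from 3 control and 3 mutant females was amplified and sequenced as single-end reads. Per the submitters' processing notes, reads were mapped with TopHat2 2.1.0 and counted with HTSeq 0.6 on mm9, while the paper names NCBI37/mm10. The authors deposited raw counts per gene symbol without normalization. Positions and exon lengths come from GENCODE on NCBIM37, which gave 1 gene model for 20763 of 24015 symbols.

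Mutant was compared with control by edgeR 4.0.16 in R 4.3.3 (quasi-likelihood test, robust dispersions, TMM, default filter on low counts with a minimum count of 10, 15236 genes), with Benjamini-Hochberg adjustment and a threshold of 0.05. DESeq2 1.42.0, the authors' tool, and limma 3.58.1 voom were alternatives, with RLE normalization, other filters, a replicate block, each library left out in turn and, for levels, plain CPM. Scripts were tested on simulated data. Total counts per library, between 11792440 and 17877137, limit precision for *Wisp1* above all, and PCR copies were not told apart by molecular identifiers, so the floors and the interval of the *Wisp1* count ratio cover counting error only. Chi-square values per degree of freedom between libraries were 6.60 to 29.6, so every pair differed by more than sampling noise.

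The members and lists were chosen with earlier results of these data known. The strand setting of HTSeq is not given in the sources used here. Genes named were drawn from the members, *Wisp2*, *Wisp3*, *Esr1*, in each pathway list those past the threshold, the 3 with the smallest p and the most abundant, in each marker list those past the threshold and the 2 most abundant, the genes nearest in pattern (5 for *Nov*, 3 for the others) and, chosen after their values were seen, *Itgb1*, *Itgb3*, *Itgb5*, *Notch1*, *Srf*, *Kiss1*, *Tacr3*, genomic neighbours and genes that DESeq2 called or that did not pass the filter. Some genes that this rule names are not reported here.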

Additional observations from a re-analysis of the deposited data

How the results depend on the processing

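The direction of *Nov*, for which no test is given, and the direction and side of the threshold of *Wisp1* held under every alternative run, except that *Wisp1* could not be fitted with a minimum of 10 counts in every library. Since *Wisp1* entered the main fit only through the mutants, its steady direction is a description only. The log2 fold changes lay between 2.53 and 3.01 for *Nov* and 1.36 and 1.91 for *Wisp1* when each library was left out, and those of *Ctgf* and *Cyr61* between -0.10 and 1.17 and between -0.0011 and 0.32, so the sign of both depended on single controls. Levels per kilobase with plain CPM moved by less than the spread between replicates. The number of genes past the threshold was 18 with edgeR, 191 with DESeq2, 106 when the filter asked for 1 count in any library, 123 with the replicate block and 7 to 46 when each library was left out. For pathway genes it was 2 with edgeR, 8 with DESeq2, 0 with limma voom (29 with an unadjusted p-value under 0.05), 5 with at least 1 count, 5 with the block and 0 to 3 leaving out a library, and for marker genes 1, 12 with DESeq2, 5 with at least 1 count, 9 with the block and 0 to 8. RLE normalization gave 18 and limma voom 14. The cause was not tested. Deviations of same-numbered libraries had r of 0.28, 0.047 and -0.0026 across genes, which are not independent replicates, so the numbers are not taken to pair the animals. With the replicate block *Nov*, *Ctgf*, *Cyr61* and *Wisp1* had log2 fold changes of 2.81, 0.50, 0.21 and 1.67, and adjusted p-values of 0.705, 0.774 and 0.229 for *Ctgf*, *Cyr61* and *Wisp1* with edgeR. Depth limits *Wisp1*, *Wisp2* and *Wisp3*, at 21 counts or fewer per library.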
